A study of Homo sapiens with 2 samples.

Results

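Laminin-332 and the hemidesmosome are described here through 7 genes, LAMA3, LAMB3, COL17A1, ITGA6, ITGB4, DST and PLEC, in ATAC-seq of SUM159 cells. SUM159 is an established breast cancer cell line of the claudin-low, triple negative kind and has a mesenchymal character. ATAC-seq marks open chromatin through the places where the transposase Tn5 inserts sequencing adapters. All cells carried dCas9-KRAB, a cleavage-dead Cas9 joined to a repressor domain, delivered by lentivirus. The No gRNA cells received this vector without a targeting guide, and the All gRNA cells received it with 4 guides directed at the promoter of ZEB1, a repressor of epithelial genes that binds E-box sequences. Each group held 1 library, so there was no replicate check and no test between the conditions, and every difference below is a difference between those libraries. In such bulk data, fewer cells with an open site and a less open site in each cell cannot be told apart.

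The members were every peak in the body of the 7 genes or within 20000 bp of any of their annotated transcript starts (GENCODE 44, hg38), from the peak list of each library. Peaks of both lists that overlapped by at least 1 bp were joined to 1 region. This gave 91 regions, of 83311 on chromosomes 1 to 22 and X, from 77 No gRNA peaks and 75 All gRNA peaks. The regions of each gene are numbered in its direction of transcription. The value compared is the summit pileup, the largest number of reads stacked in a peak, solved from the deposited fold and p-value. The All gRNA library had 0.743 times the depth of the No gRNA library, and each ratio of All gRNA to No gRNA pileup was divided by that figure. Intervals are 95% Clopper-Pearson intervals of the counts and cover counting error only. They are too narrow where both ends of a fragment were counted. A region was called higher or lower where its ratio was at least 2-fold and the interval excluded 1.

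Laminin-332 is the laminin of the epithelial basement membrane and contains the alpha-3 and beta-3 chains. It is the ligand of integrin alpha-6 beta-4, which together with the transmembrane collagen XVII forms the outer part of the hemidesmosome. On the inner side the plakins plectin and BPAG1 tie these receptors to keratin filaments. Loss of these proteins leads to blistering skin disease, and in the breast they anchor the basal layer of the ducts. Several of the genes have internal promoters that give shorter or tissue-specific proteins. LAMA3 encodes a long alpha-3B and a short alpha-3A chain, and DST encodes the epithelial BPAG1e besides larger neuronal and muscle forms.

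The genome background, which follows the depth, was 0.651816 reads per position in No gRNA and 0.484375 reads per position in All gRNA. The targeted gene ZEB1 had a peak at its main start in the No gRNA library only, with a summit pileup of 27 reads. The main starts of all 4 mesenchymal markers, VIM, CDH2, FN1 and SPARC, lay under peaks in both libraries. Of the 7 epithelial markers, KRT18 had a peak at its main start in both libraries, whereas EPCAM, CDH1, CLDN3, CLDN4, CLDN7 and KRT8 had none in either. The luminal markers GATA3 and FOXA1 had one in both libraries and ESR1 in neither. The leukocyte marker PTPRC and the endothelial markers PECAM1 and CDH5 had none in either.

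The sequences at the main starts of 5 genes are shown first. Each is the 150 bases of hg38 before the first start, on the strand of the gene. They lie at chr18:23689303-23689452 (plus strand), chr1:209652426-209652575 (minus), chr10:104085881-104086030 (minus), chr2:172427204-172427353 (plus) and chr6:56954831-56954980 (minus). Capitals mark CAGGTG on either strand (read as CACCTG on the other), an E-box form that ZEB1 can bind, and TGANTCA, the AP-1 motif.
LAMA3 main promoter: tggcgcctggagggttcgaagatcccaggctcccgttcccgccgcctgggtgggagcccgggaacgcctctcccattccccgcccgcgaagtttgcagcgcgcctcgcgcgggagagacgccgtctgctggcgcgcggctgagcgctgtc
LAMB3 main promoter: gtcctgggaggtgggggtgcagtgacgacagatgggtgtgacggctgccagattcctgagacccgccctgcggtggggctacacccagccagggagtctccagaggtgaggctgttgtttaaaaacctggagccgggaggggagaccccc
COL17A1 main promoter: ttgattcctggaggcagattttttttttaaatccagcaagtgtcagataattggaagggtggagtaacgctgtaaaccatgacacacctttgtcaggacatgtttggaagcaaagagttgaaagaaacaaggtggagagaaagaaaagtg
ITGA6 main promoter: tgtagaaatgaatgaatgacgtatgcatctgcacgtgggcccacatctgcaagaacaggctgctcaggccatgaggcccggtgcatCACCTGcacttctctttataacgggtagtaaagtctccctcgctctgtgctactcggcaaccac
DST main promoter: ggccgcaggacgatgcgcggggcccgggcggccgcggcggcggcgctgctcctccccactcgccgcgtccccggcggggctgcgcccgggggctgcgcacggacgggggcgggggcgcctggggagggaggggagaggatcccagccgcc

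Of these 5 stretches only that of ITGA6 held CAGGTG, a motif present in 10.2% of the same 150 bases of 19970 protein-coding genes. None held TGANTCA, which was present in 2.83% of them. The G+C content was 85.3% for DST, 73.3% for LAMA3, 64.7% for LAMB3, 52.7% for ITGA6 and 40.0% for COL17A1. COL17A1, with the lowest content of the 5, was the gene with no peak within 1000 bp of a start in either library. A peak within that distance need not cover the printed bases. The peaks nearest to the LAMB3 main start lay 678 and 751 bp away.

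The regions past 2-fold follow, each as the 201 bases around its summit on the strand of the gene, with the same capitals. They are chr18:23718316-23718516 (plus strand, intron 2), chr18:23828570-23828770 (plus, intron 23), chr1:209670528-209670728 (minus, upstream of the gene), chr6:56821199-56821399 (minus, intron 4) and chr6:56773029-56773229 (minus, intron 4). Below them stand the regions found in 1 library only that had the highest fold over background outside PLEC, chr10:104045641-104045841 (minus, No gRNA only, intron 33) and chr1:209602159-209602359 (minus, All gRNA only, downstream of the gene).
LAMA3 region 5: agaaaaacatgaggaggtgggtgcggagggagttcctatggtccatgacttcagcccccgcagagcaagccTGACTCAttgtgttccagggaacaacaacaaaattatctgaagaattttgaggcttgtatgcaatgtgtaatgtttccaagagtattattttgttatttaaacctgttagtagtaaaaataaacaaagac
LAMA3 region 10: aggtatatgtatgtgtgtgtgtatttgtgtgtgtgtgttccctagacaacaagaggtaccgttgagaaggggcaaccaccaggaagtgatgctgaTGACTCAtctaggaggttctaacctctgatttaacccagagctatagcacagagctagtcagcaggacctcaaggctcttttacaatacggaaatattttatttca
LAMB3 region 1: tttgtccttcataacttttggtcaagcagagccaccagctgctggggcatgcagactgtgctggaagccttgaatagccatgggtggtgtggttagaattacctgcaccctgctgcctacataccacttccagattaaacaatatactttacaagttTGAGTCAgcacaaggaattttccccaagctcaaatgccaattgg
DST region 12: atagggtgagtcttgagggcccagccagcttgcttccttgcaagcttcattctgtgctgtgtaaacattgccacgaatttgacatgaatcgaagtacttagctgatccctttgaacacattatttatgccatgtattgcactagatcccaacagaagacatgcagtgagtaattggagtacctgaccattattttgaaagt
DST region 15: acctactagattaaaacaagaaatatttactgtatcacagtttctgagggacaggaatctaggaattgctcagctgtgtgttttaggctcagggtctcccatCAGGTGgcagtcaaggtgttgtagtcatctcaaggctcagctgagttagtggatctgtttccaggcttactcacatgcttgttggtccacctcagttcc
COL17A1 region 6: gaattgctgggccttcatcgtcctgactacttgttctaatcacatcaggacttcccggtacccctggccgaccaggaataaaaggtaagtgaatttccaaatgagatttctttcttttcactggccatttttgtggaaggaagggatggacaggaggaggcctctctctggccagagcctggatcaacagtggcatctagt
LAMB3 region 9: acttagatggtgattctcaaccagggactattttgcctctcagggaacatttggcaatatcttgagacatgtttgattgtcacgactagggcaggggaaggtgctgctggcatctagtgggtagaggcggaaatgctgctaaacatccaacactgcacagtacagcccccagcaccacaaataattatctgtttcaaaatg

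TGANTCA stood in LAMA3 regions 5 and 10 and in LAMB3 region 1, the first lower and the others higher in All gRNA. CAGGTG stood in DST region 15, which was lower in All gRNA, and in no other of these 7 sequences.

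Across the 7 genes, 58 of the 91 regions had a peak in both libraries (63.7%, against 60.4% of all regions). A peak in No gRNA only was found in 18 regions (19.8%), where the background over all regions was 20.1%. A peak in All gRNA only was found in 15 regions (16.5%), where the background was 19.5%. Among the 58 shared regions, 3 were higher in All gRNA (5.17%, background 2.38%) and 2 were lower (3.45%, background 3.3%). The counts of 3 and 2 are small, and the shares of regions in 1 library were near the background. The balance also depended on the measure: with the ratio of the deposited folds, which are taken over the local background, 1 region was higher and 4 were lower. That ratio has no counting interval, and the background shares above do not apply to it. By it LAMA3 region 10 (2.22) and DST region 15 (0.379) stayed past 2-fold. LAMB3 region 1 (1.60), DST region 12 (1.94) and LAMA3 region 5 (0.503) fell short of it. COL17A1 region 3 (0.475), ITGB4 region 4 (0.447) and DST region 30 (0.372), with 20 and 7 reads in the last, passed it instead.

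**Figure D1:**
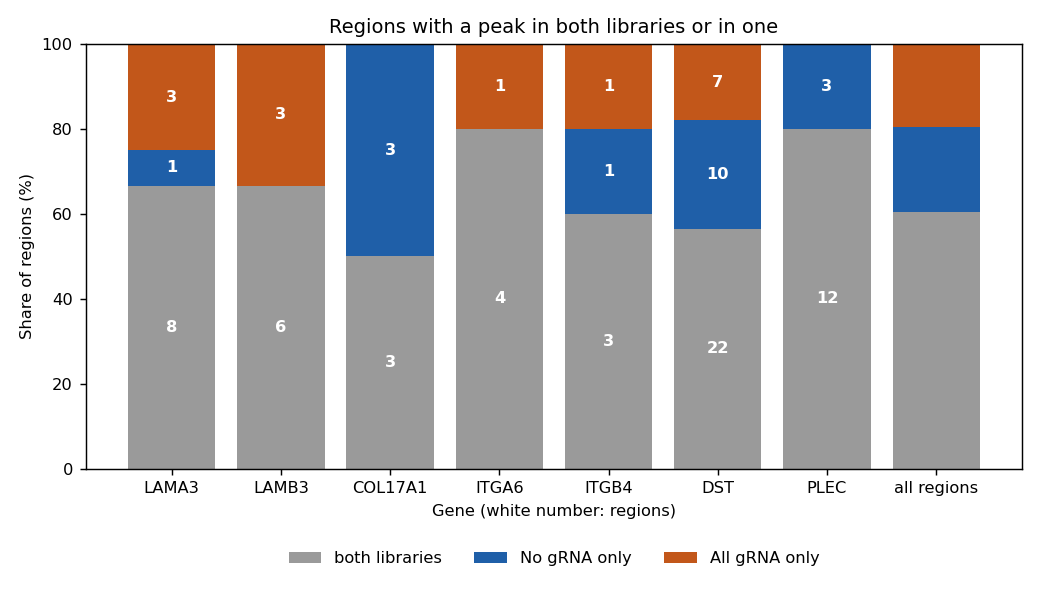
Share of regions (%) with a peak in both libraries (grey), in No gRNA only (blue) or in All gRNA only (orange) for each gene, with the number of regions in white, beside all 83311 regions. COL17A1 and PLEC had no All gRNA only region and LAMB3 and ITGA6 had no No gRNA only region.

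The median ratio of the 58 shared regions was 0.981, and that of all shared regions was 0.925. The ratio was below 1 in 31 of the 58 (53.4%, against 58.5% of all shared regions). DST held 22 of the 58. Without DST the median of the other 36 was 0.871, and 22 of them were below 1 (61.1%). The place of the members above the all-region median therefore rests on DST. In 49 of the 58 the interval included 1, in 6 it lay below 1 and in 3 above. No share of all shared regions is set beside these counts, and the median of all shared regions was itself below 1. Of the 33 regions in 1 library only, all had a pileup that, scaled to the depth of the other library, reached the lowest pileup called there at a background within 10% of the same level. This check could hardly fail, because the limit is the lowest among called peaks and All gRNA pileups were scaled up. It does not show that such peaks would have been called in the other library. In 8 of the 33 the scaled pileup reached the median of the peaks called there at such a background. Most were therefore weak peaks for their surroundings. The same count was not made over all regions found in 1 library. Low pileups in such regions were not particular to the 7 genes. Over the whole data, peaks of the No gRNA library alone had a median of 11 reads, against 26 in its shared regions. For the All gRNA library these medians were 8 and 18 reads.

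**Figure D2:**
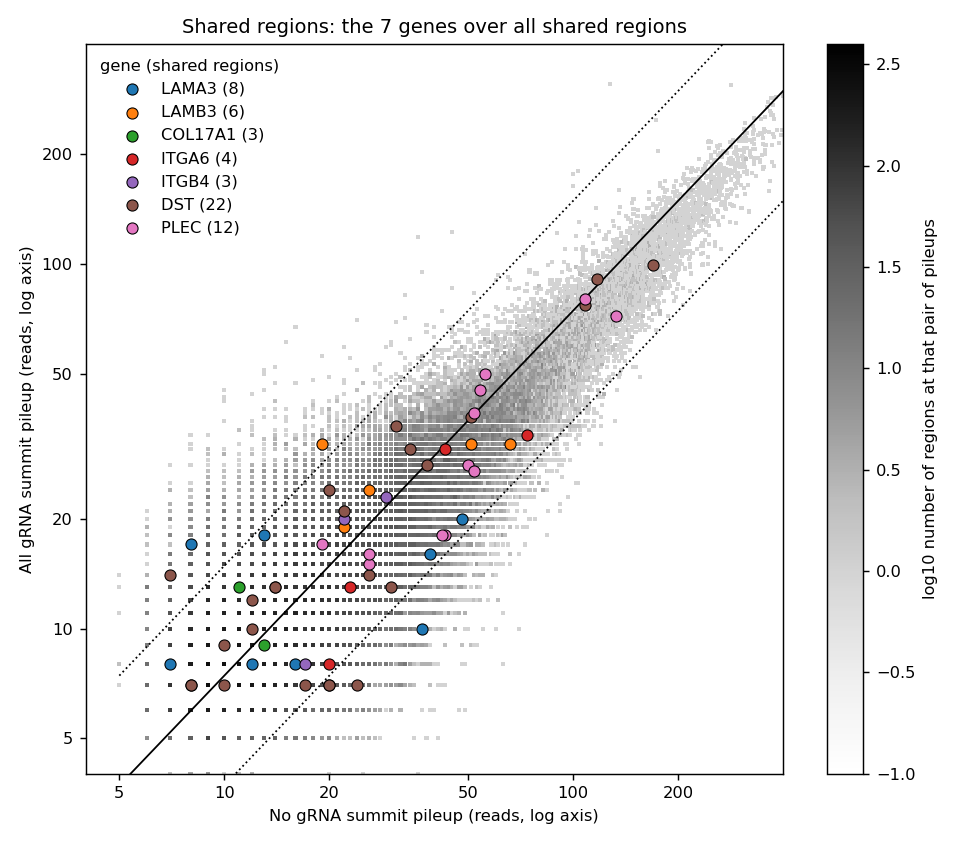
Summit pileup (reads, log axes) in No gRNA against All gRNA for the 58 shared regions of the 7 genes (coloured points) over all 50354 shared regions (grey, darker where more regions share a pair of values). The solid line is equal depth-corrected pileup and the dotted lines are 2-fold, and 5 coloured points past a dotted line have an interval that excludes 1.

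By position, 22 regions lay within 1000 bp of a transcript start of their gene and 69 did not. Of the 22, 16 were shared, 5 were No gRNA only (22.7%) and 1 was All gRNA only (4.55%). Over all regions within 1000 bp of a start of a protein-coding gene these shares were 12.7% and 7.67%. The 5 No gRNA only regions were ITGB4 region 2, DST region 38 and PLEC regions 6, 7 and 10. PLEC regions 6 and 7 lay at the same start, so the share of 22.7% rests largely on PLEC. The median ratio of the 16 was 0.806, and 12 of them were below 1 (75.0%), although none was past 2-fold. Over all shared regions at coding starts the median was 0.869 and 70.1% were below 1. The 42 shared regions away from a start of their own gene had a median ratio of 1.09. Over all shared regions away from any coding start it was 0.961. The 2 sets are not alike, because the 42 include regions near starts of other genes, such as LAMB3 region 8 and ITGB4 region 5. In introns away from a start there were 56 regions, of which 32 were shared with a median ratio of 1.14. Of the 56, 11 were No gRNA only (19.6%) and 13 were All gRNA only (23.2%), near the 20.1% and 19.5% of all regions. No value for all intronic regions is set beside these. Summit strength moved with the ratio over the whole data: the median log2 ratio of all shared regions was 0.07 in the weakest of 5 strength classes and -0.23 in the strongest. Its part in the difference between starts and introns was not tested.

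The 7 genes had 67 separate start sites after starts within 500 bp were joined. A peak lay within 1000 bp of 18 sites in both libraries (26.9%), where the background over the start sites of all protein-coding genes was 26.6%. It lay at 3 sites in No gRNA only (background 2.31%) and at 0 sites in All gRNA only (background 1.43%). The 3 sites were the main start of ITGB4 and the PLEC-204 and PLEC-207 starts of PLEC. No peak in either library was found at 46 sites. With a distance of 4000 bp the balance turned, with 3 sites near an All gRNA peak alone and 2 near a No gRNA peak alone. The background shares above are for 1000 bp and do not apply to these counts.

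**Figure D3:**
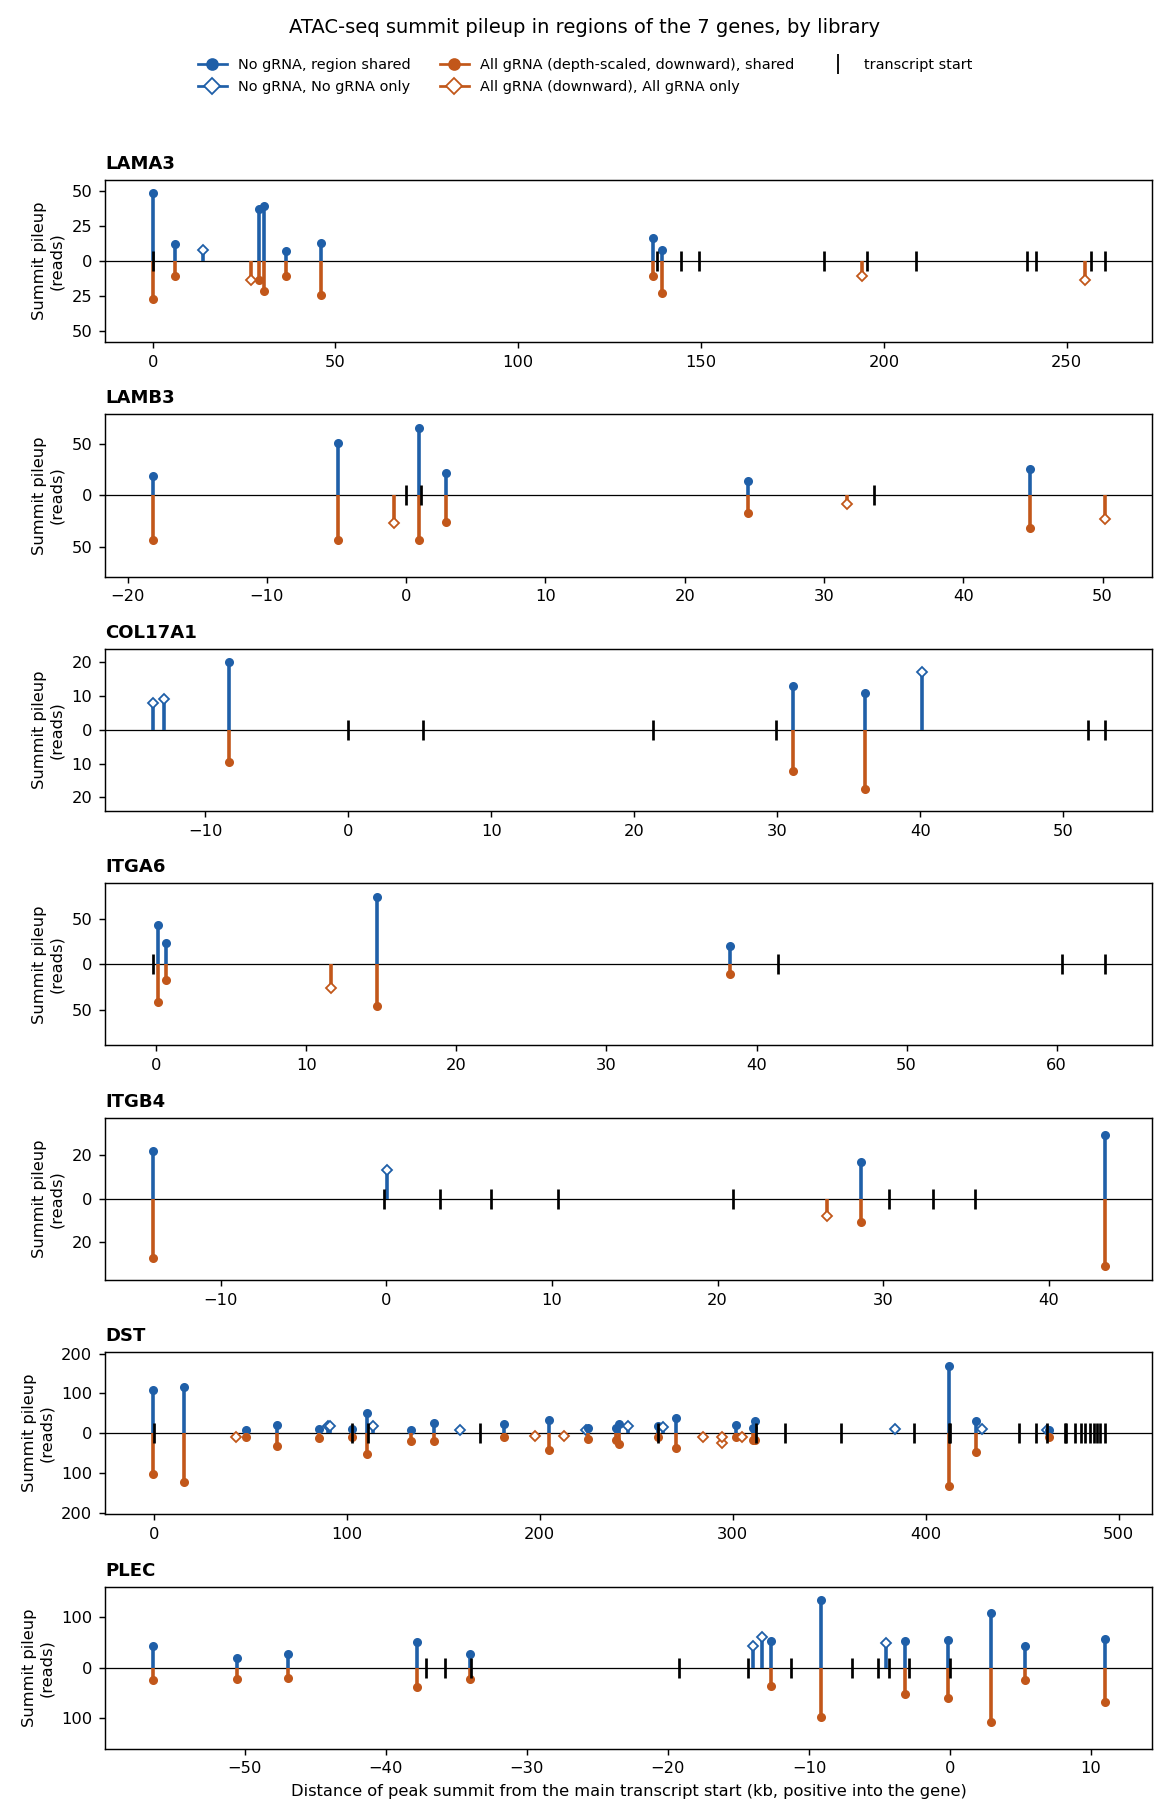
Summit pileup (reads) of each region of the 7 genes by its distance (kb) from the main transcript start, with No gRNA upward in blue and All gRNA, divided by the depth ratio of 0.743, downward in orange. Open diamonds are regions with a peak in 1 library only and black ticks are transcript starts. No COL17A1 start lies under a peak, and the tallest DST pair, 170 and 99 reads before scaling, lies 411.84 kb into the gene.

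LAMA3 (ENSG00000053747.17, chr18:23689453-23956222, plus strand), the alpha-3 chain, had 12 regions, of which 8 were shared, 1 was No gRNA only and 3 were All gRNA only. Its start of the 3333-residue alpha-3B form, LAMA3-202, was open in both libraries. Region 1 there had a summit pileup of 48 reads in No gRNA and 20 reads in All gRNA. The depth-corrected ratio was 0.561 (95% interval 0.315 to 0.963), lower in All gRNA but short of 2-fold. Among the 10 other start sites, a peak lay only at that of the non-coding transcript LAMA3-212. Region 9, 903 bp from it, had 16 reads in No gRNA and 8 in All gRNA, giving a ratio of 0.673 (0.249 to 1.67). The internal start of the 1724-residue alpha-3A form, LAMA3-201, lay 183.567 kb into the gene and had no peak within 1000 bp in either library.

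Inside LAMA3 the regions moved in both directions. Region 5 in intron 2 (chr18:23718279-23718760), 28.96 kb from the main start, fell from 37 reads in No gRNA to 10 in All gRNA. Its ratio of 0.364 (0.161 to 0.746) was the lowest of all 58 shared regions. The neighbouring region 6, with 39 and 16 reads, had a ratio of 0.552 (0.288 to 1.01). Region 8, also in intron 2, had 13 reads in No gRNA and 18 in All gRNA, giving a ratio of 1.86 (0.863 to 4.14) whose interval included 1. Region 10 in intron 23 (chr18:23828585-23828870) rose from 8 to 17 reads, a ratio of 2.86 (1.17 to 7.66) and the highest of the 58. This region followed region 9 along the gene. The strongest All gRNA only regions of the gene were region 4 in intron 2 and region 12 in intron 69, each with 10 reads. Its No gRNA only region, region 3 in intron 1, had 8 reads.

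LAMB3 (chr1:209614870-209652425, minus strand), the beta-3 chain, had 9 regions, of which 6 were shared and 3 were All gRNA only. It had no No gRNA only region, and its median ratio of 1.20 was the highest among the 7 genes. That median counts regions 1 and 8, with ratios of 2.27 and 1.24, which lay nearer to other genes. The other shared regions of LAMB3 had ratios of 0.652, 0.844, 1.16 and 1.25, so the rank rests partly on regions 1 and 8. The strongest peak was region 4 at the start of LAMB3-203 and LAMB3-204, 0.92 kb inside the gene, with 66 reads in No gRNA and 32 in All gRNA. Its ratio of 0.652 (0.414 to 1.01) was the lowest of the gene. The main start of LAMB3 counts as having a peak in both libraries through this region, which reaches within 1000 bp of it. Upstream of the main start, region 3 was a peak of the shortest length found in All gRNA only, with 20 reads. Scaled to the No gRNA depth this pileup was 26.9, where the lowest called pileup at such a background was 14 and the median was 62. Region 2, 4.92 kb upstream, had 51 and 32 reads and a ratio of 0.844 (0.525 to 1.34).

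Region 1 of LAMB3 (chr1:209670442-209670867), 18.2 kb upstream, rose from 19 reads in No gRNA to 32 in All gRNA, giving a ratio of 2.27 (1.25 to 4.23). It lay nearer to another gene, 4784 bp from the coding start of G0S2, so its place among the LAMB3 regions rests on the 20000 bp flank. The regions downstream of LAMB3 also lay nearer to another gene, CAMK1G. Region 8, 182 bp from a CAMK1G start, had 26 and 24 reads and a ratio of 1.24 (0.683 to 2.25). Region 9 was All gRNA only with 17 reads, or 22.9 at the No gRNA depth, where the median called pileup was 18.

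The read density was also compared around the peaks. The local background of each peak counts the reads in the 10000 bp around its summit, peak included. In 5 LAMB3 windows it was above the genome background in both libraries and could be compared, and the depth-corrected ratio had a median of 1.40 and ran from 1.01 to 1.62. The interval lay above 1 in 3 of the 5, of which those of regions 1 and 8 surround peaks nearest to G0S2 and CAMK1G. Around regions 4 and 5, inside the gene, it included 1, with ratios of 1.13 (0.893 to 1.43) and 1.01 (0.790 to 1.29). Around region 1 the window held 68 reads in No gRNA and 72 in All gRNA, giving a ratio of 1.42 (1.01 to 2.01). In LAMA3 the windows around regions 5 and 6, which overlap, held 176 and 174 reads in No gRNA and 80 and 81 in All gRNA, with ratios of 0.612 (0.464 to 0.801) and 0.626 (0.475 to 0.820). Over all 39362 regions with a value the median ratio of such windows was 0.912, and 90% of them lay between 0.616 and 1.46. The share of these windows with an interval above or below 1 is not given.

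**Figure D4:**
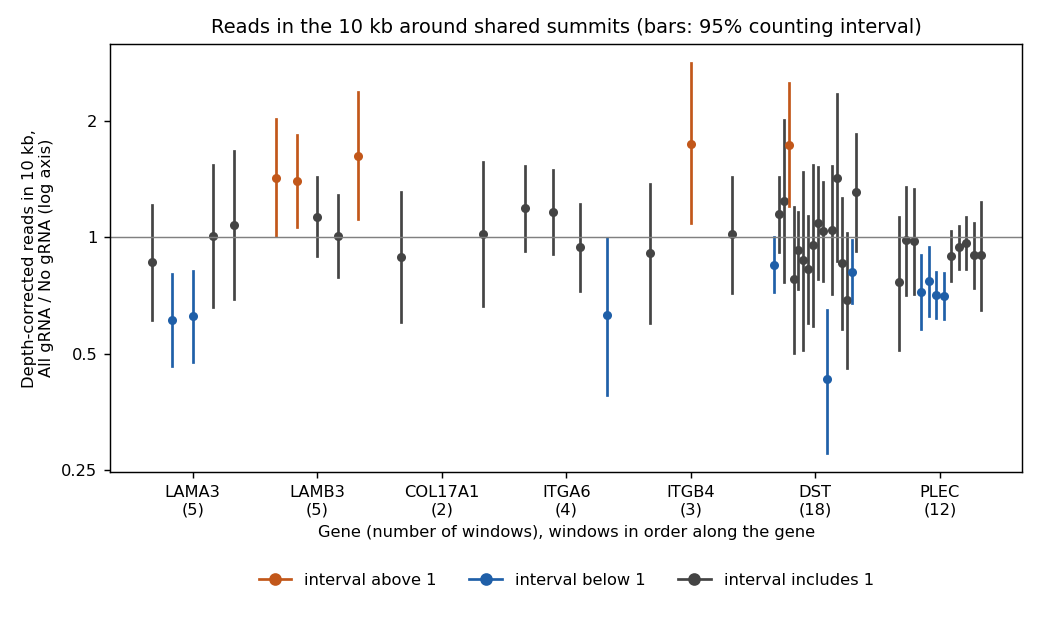
Depth-corrected ratio, All gRNA to No gRNA, of reads in the 10000 bp around each shared summit (log axis), with 95% counting intervals, in order along each gene and with the number of windows under its name. LAMB3 has 3 windows with an interval above 1, and PLEC has 4 windows with an interval below 1 and none with an interval above. Neighbouring windows overlap.

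COL17A1 (chr10:104031286-104085880, minus strand), the collagen XVII of the hemidesmosome, had 6 regions, of which 3 were shared and 3 were No gRNA only. None of its 6 start sites had a peak in either library. The nearest region to the main start was region 3, 8.36 kb upstream, with 20 reads in No gRNA and 7 in All gRNA. Its ratio of 0.471 (0.168 to 1.16) passed 2-fold with an interval that included 1. The highest ratio of the gene was 1.59 (0.657 to 3.92) in region 5, intron 28, with 11 and 13 reads. Region 4 in intron 20 had 13 and 9 reads, a ratio of 0.932 (0.351 to 2.36). Region 6 at the start of intron 33 was the strongest No gRNA only region here, with 17 reads, or 12.6 at the All gRNA depth, where the lowest called pileup was 5 and the median was 14. The other No gRNA only regions, 1 and 2, lay 13.68 and 12.91 kb upstream with 8 and 9 reads.

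ITGA6 (chr2:172427354-172506459, plus strand), the integrin alpha-6 chain, had 5 regions, of which 4 were shared and 1 was All gRNA only. Its main start site, shared by 7 transcripts, was open in both libraries. Region 1 there had 43 reads in No gRNA and 31 in All gRNA, giving a ratio of 0.970 (0.591 to 1.58), the highest of the gene. Region 2, just inside intron 1, had 23 and 13 reads and a ratio of 0.761 (0.354 to 1.57). The strongest peak was not at the start but in intron 1, 14.73 kb in. This region 4 (chr2:172442087-172442547) had 74 reads in No gRNA and 34 in All gRNA, giving a ratio of 0.618 (0.399 to 0.940). Region 3, also in intron 1, was All gRNA only with 19 reads, or 25.6 at the No gRNA depth, where the lowest called pileup was 10 and the median was 46. Region 5 in intron 2 had 20 and 8 reads and the lowest ratio, 0.538 (0.205 to 1.28). The other 3 start sites had no peak in either library.

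ITGB4 (chr17:75721328-75757818, plus strand), the integrin beta-4 chain and partner of alpha-6, had 5 regions. Its main start, shared by 5 transcripts with the full-length ITGB4-201 of 1822 residues among them, had a peak in No gRNA only. Region 2 there had 13 reads, or 9.66 at the All gRNA depth, where the lowest called pileup was 5 and the median was 16. Thus the peak was a weak one, and its absence from the All gRNA list is a difference between a called and an uncalled peak, with no All gRNA pileup to set beside it. None of the 7 other start sites had a peak. Region 4, in exon 28, had 17 reads in No gRNA and 8 in All gRNA, the lowest ratio of the gene at 0.633 (0.237 to 1.55). Region 3 in intron 26 was All gRNA only with 6 reads. Regions 1 and 5 lay near starts of other genes, SAP30BP and GALK1, with ratios of 1.22 (0.633 to 2.35), the highest, and 1.07 (0.590 to 1.91).

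DST (chr6:56457987-56954830, minus strand), which encodes the BPAG1 plakins, held 39 of the 91 regions, of which 22 were shared, 10 were No gRNA only and 7 were All gRNA only. A peak in both libraries lay at 8 of its 24 start sites and at the other 16 there was none in either. Region 1 at the main start, whose summit was 8 bp from the start of the divergent gene BEND6, had 108 reads in No gRNA and 77 in All gRNA. Its ratio was 0.959 (0.707 to 1.30). The strongest peak of all 7 genes was region 35 (chr6:56542554-56543296) in intron 61 at the starts of DST-232 and DST-203, with 170 reads in No gRNA and 99 in All gRNA. The ratio was 0.784 (0.605 to 1.01). DST-203 encodes 2676 residues, against 7818 for DST-241 from the main start.

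The start of DST-205, whose 2649 residues correspond to the epithelial BPAG1e, lay 311.834 kb into the gene and was open in both libraries. Region 33 there had 30 reads in No gRNA and 13 in All gRNA, giving a ratio of 0.583 (0.279 to 1.15). At the start of DST-202 region 9 had 10 and 7 reads, a ratio of 0.942 (0.304 to 2.74). Region 10, at the start of DST-204, had 51 and 38 reads, a ratio of 1.00 (0.641 to 1.56). The start of DST-240 had region 24 with 17 and 7 reads, a ratio of 0.554 (0.194 to 1.41), and the 10000 bp around it held 97 and 31 reads, a ratio of 0.430 (0.277 to 0.650). The start of the non-coding DST-213 lay inside region 38, a peak in No gRNA only with 9 reads. It counts as having a peak in both libraries through region 39, 864 bp away, with 8 and 7 reads and a ratio of 1.18 (0.363 to 3.72). The interval of each of the 7 shared regions at DST starts included 1.

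In the introns of DST, region 12 in intron 4 (chr6:56821171-56821554) had 7 reads in No gRNA and 14 in All gRNA. Its ratio of 2.69 (1.02 to 7.88) was the highest of the gene, with a lower bound close to 1. Region 15 in the same intron (chr6:56772806-56773300) had 24 and 7 reads, the lowest ratio of the gene at 0.392 (0.143 to 0.939). Its interval included 1 when ratios were scaled by the median of all shared regions. The strong intronic region 2, 15.93 kb from the main start, was nearly equal, with 117 and 91 reads and a ratio of 1.05 (0.787 to 1.39). Regions 7, 8 and 11 were the strongest No gRNA only regions with 18 reads each, or 13.4 at the All gRNA depth, where the median called pileups were 24, 21 and 40. Region 28 in intron 10 was the strongest All gRNA only region with 18 reads, or 24.2 at the No gRNA depth, where the median was 24.

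PLEC (minus strand), the gene of plectin, had 15 regions, of which 12 were shared and 3 were No gRNA only. Its 11 start sites carry alternative first exons, and the longest protein of each site had 4515 to 4684 residues, most of them shared. At 5 of the sites a peak lay in both libraries. Region 4 at the outermost start, 37.137 kb before the main start, had 50 reads in No gRNA and 28 in All gRNA, giving a ratio of 0.754 (0.457 to 1.22). Region 5 at the start of PLEC-205 had 26 and 16 reads, a ratio of 0.828 (0.415 to 1.60). Region 11, 13 bp from the start of PLEC-206, had 52 and 39 reads, a ratio of 1.01 (0.649 to 1.56). It also lay 594 bp from the start of PLEC-203, which counts as having a peak in both libraries through this region alone. Region 12 at the main start, PLEC-202, had 54 and 45 reads, a ratio of 1.12 (0.738 to 1.70).

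The other PLEC regions at a start were peaks in No gRNA only. Regions 6 and 7 lay 299 and 898 bp from the start of PLEC-204 with 42 and 60 reads. At the All gRNA depth these are 31.2 and 44.6, where the lowest called pileup was 21 for each and the medians were 34 and 35. Region 10, 11 bp from the start of PLEC-203 and 512 bp from that of PLEC-207, had 49 reads, or 36.4 at the All gRNA depth, where the median was 35. The peak nearest to the PLEC-203 start was therefore in No gRNA only. Between these starts region 9 was the strongest peak of the gene, with 133 reads in No gRNA and 72 in All gRNA and a ratio of 0.728 (0.539 to 0.978). The lowest ratio was 0.563 (0.306 to 0.997) in region 1, which with regions 2 and 3 lay nearer to the genes GRINA and PARP10. The highest were 1.20 (0.588 to 2.45) in region 2 and 1.20 (0.804 to 1.79) in region 15, intron 25.

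PLEC stood apart in its read density. The median local background of its No gRNA peaks was 8.04 reads, 12.3 times the genome background and at the 97.1th percentile of all regions, while the medians of the other genes ran from 1.00 to 2.75. In 4 of its 12 windows the depth-corrected reads in 10000 bp were lower in All gRNA with an interval below 1, and in none was the interval above 1. The median ratio of its 12 windows was 0.896, near the 0.912 of all such windows. No share of all windows with such an interval is set beside these counts. The windows of regions 8 and 9, which overlap, held 623 and 628 reads in No gRNA and 328 and 329 in All gRNA, with ratios of 0.708 (0.618 to 0.811) and 0.705 (0.615 to 0.807). The part of this density in the No gRNA only calls was not tested. Without PLEC the counts were 15 No gRNA only and 15 All gRNA only regions.

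**Figure D5:**
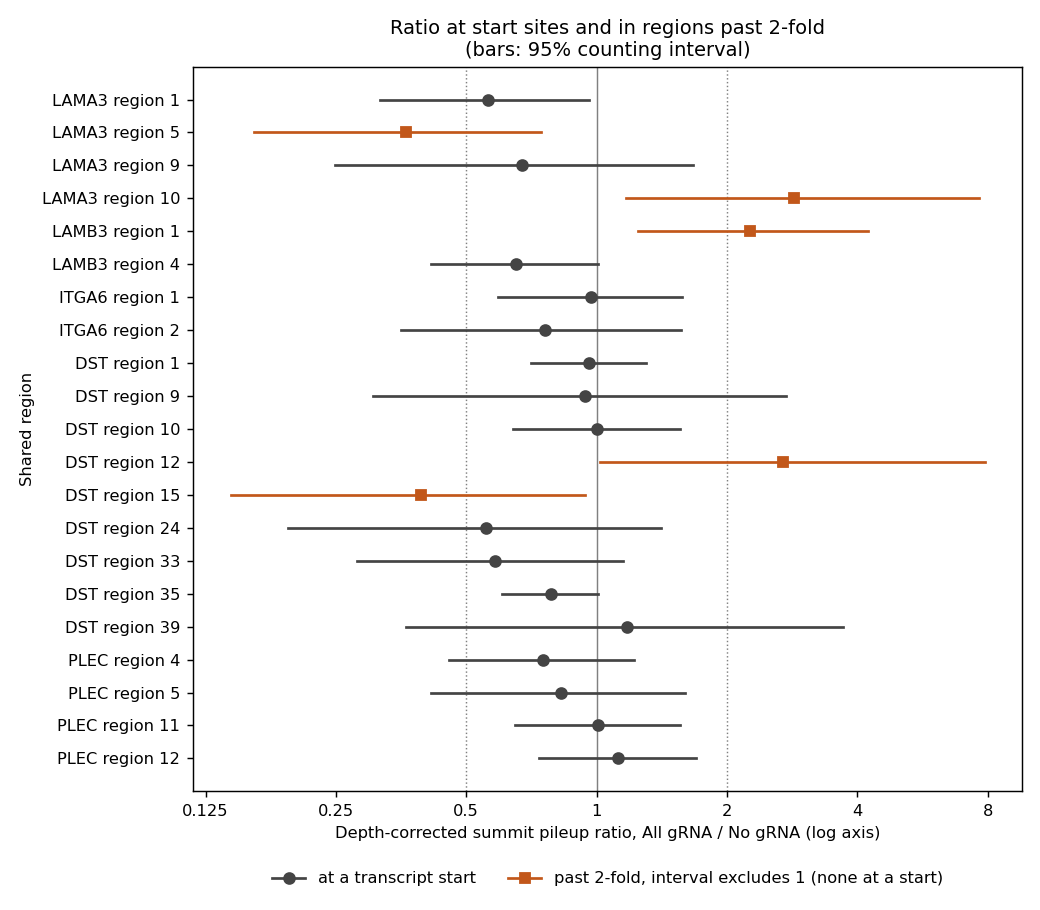
Depth-corrected summit pileup ratio, All gRNA to No gRNA (log axis), with 95% counting intervals for the 16 shared regions at a transcript start (grey circles) and the 5 regions past 2-fold (orange squares). Of the 16 at a start, only the LAMA3 main start has an interval that excludes 1 (0.315 to 0.963).

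By role, the laminin chains held 21 regions, of which 14 were shared, with 2 higher (14.3% of the shared) and 1 lower (7.14%). The transmembrane members held 16, with 10 shared and 0 of each. The plakins held 54, with 34 shared and 1 of each (2.94%). The backgrounds were 2.38% of shared regions higher and 3.3% lower. Of the 2 higher regions of the laminin chains, LAMB3 region 1 lay nearer to G0S2. The No gRNA only and All gRNA only regions were 1 and 6 for the laminin chains, 4 and 2 for the transmembrane members and 13 and 7 for the plakins. As shares these are 4.76 and 28.6%, 25.0 and 12.5%, and 24.1 and 13.0%, against 20.1 and 19.5% of all regions. Among the 6 of the laminin chains, LAMB3 region 9 lay nearer to CAMK1G. The median ratios of the 3 roles were 1.03, 0.846 and 1.00. With 1 library per condition, these counts were not tested against each other.

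E-box and AP-1 motifs were counted in the 201 bases around each summit, on both strands. CAGGTG stood in 11 of the 91 regions (12.1%, 95% Clopper-Pearson interval 6.19 to 20.6%), against 12.5% of all regions. Of the 15 All gRNA only regions 1 held it (6.67%, 0.169 to 31.9%), against 16.4% of all All gRNA only regions. CAGCTG, another E-box form, stood in 17 (18.7%, 11.3 to 28.2%), against 12.1% of all regions. TGANTCA stood in 27 (29.7%, 20.5 to 40.2%), against 30.8%. In this window each all-region share lay within the interval of the members. With 250 bp to each side this still held for CAGGTG (28.6%, 19.6 to 39.0%, against 30.1%) and TGANTCA (41.8%, 31.5 to 52.6%, against 45.8%). It did not hold for CAGCTG, which then stood in 33 of the 91 regions (36.3%, 26.4 to 47.0%) against 25.4% of all regions. That share rests largely on PLEC, with 10 of its 15 regions (66.7%). The counts were 14 of 39 for DST, 3 of 5 for ITGA6 and 2 of 5 for ITGB4. They were 2 of 12 for LAMA3, 1 of 9 for LAMB3 and 1 of 6 for COL17A1. A match of letters does not show that a factor was bound.

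The partners of these genes were examined as a list of 14 genes of the same adhesion system. It held chains of other laminins (LAMA5, LAMB1, LAMB2 and LAMC1), the integrin chains ITGA2, ITGA3 and ITGB1, the tetraspanin CD151, the scaffold ERBIN, the anchoring fibril collagen COL7A1, the basal keratins KRT5 and KRT14, the integrin activator FERMT1 and BMP1, a protease that cleaves laminin-332. Of their 107 regions 73 were shared, 16 were No gRNA only and 18 were All gRNA only, or 68.2%, 15.0% and 16.8%, where the shares over all regions were 60.4%, 20.1% and 19.5%. Of the 73 shared ones 0 were higher (background 2.38%) and 6 were lower (8.22%, background 3.3%). The main start had a peak in both libraries in 13 genes and in neither for KRT14. The median ratio at these 13 starts was 1.01, from 0.475 to 1.54. LAMA5, the alpha-5 chain, had 34 reads in No gRNA and 12 reads in All gRNA at its main start, a ratio of 0.475 (0.224 to 0.940), the only start of the list whose interval excluded 1. CD151 had the highest, with 28 and 32 reads and a ratio of 1.54 (0.897 to 2.65).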

How the data were processed

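The authors used fastp for trimming and bowtie2 for alignment to hg38, discarded mitochondrial, excluded-region and duplicate reads, and ran MACS2 on each library alone without a control (stated extension 150 bp; the lists fit a window of 200 bp). The deposited lists give, per peak, a fold enrichment (a ratio), a −log10 p-value and a −log10 q-value, and a score. The score was not used, and the authors' q-value served only for filters. Pileup and local background were solved from the deposited fold and −log10 p for 100% of peaks, after a test on simulated data. The lowest background gave the depth: about 8.80e+06 reads for No gRNA and 6.54e+06 for All gRNA with a 200 bp window.

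Regions, ratios and intervals were computed as described with python 3.11.15, numpy 2.4.6, pandas 2.3.3 and scipy 1.17.1, over all regions of chromosomes 1 to 22 and X. No p-value between conditions was computed. Sequences, starts and protein lengths came from hg38 and GENCODE 44. The 7 genes, the 14 partner genes and the markers were chosen with earlier results of these data known. The text names, for each gene, every region at a start, every region past 2-fold, the strongest region of each library alone, and the highest and lowest ratio. Alternatives were another scaling, overlap, q-value filter, fold measure, distance to starts and motif window. After seeing the data, counts without PLEC and without regions nearer to another gene were added, as were the ratios without DST. No sequence is printed for PLEC, and some listed items are not reported here.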

Additional observations from a re-analysis of the deposited data

How the results depend on the processing

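No paired analysis was possible because there was 1 library per condition, and no library could be left out for the same reason. Of 63 values recomputed, 51 stayed within 1.5 times of a count or within their counting interval and 12 moved. Single counts have no direction, but the balance of higher to lower regions and that of start sites in 1 library turned. The ratios of the 21 regions at a start or past 2-fold all stayed within their intervals. With a −log10 q of at least 10, the peaks in the 7 genes fell from 77 to 50 in No gRNA and from 75 to 34 in All gRNA, the No gRNA only regions from 18 to 5 and the All gRNA only regions from 15 to 2. With a −log10 q of at least 5 the All gRNA only regions numbered 8, and when both peaks had to overlap by 50% they numbered 25. With ratios of the authors' folds 1 region was higher and 4 were lower, against 3 and 2 by pileup. Scaling by the median of all shared regions left 3 higher and 1 lower, with DST region 15 lost, and 2-fold without the interval gave 4 lower. With starts matched within 4000 bp, 3 start sites had an All gRNA peak alone and 2 a No gRNA peak alone, against 0 and 3 within 1000 bp. The share of regions with CAGGTG was 28.6% with 250 bp to each side, where that of all regions was 30.1%. At that window CAGCTG stood in 36.3% of the regions against 25.4% of all, largely through PLEC, with 10 of its 15 regions. Without the regions nearer to another gene, a choice made after seeing the data, 2 regions were higher and 2 were lower. Pileups of 7 to 24 reads give intervals several-fold wide, and at that depth most single differences were not detectable.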
